A study of Zea mays with 24 samples.

Results

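The genes described here are 100 maize probes whose RNA was lower under cold than under control conditions on all 12 arrays that set cold against control roots of one variety. They were chosen by those values: of 43393 genes on the array, 12708 had a value on all 12 of these arrays, and 341 of them, 2.68%, lay below 0 on all 12, where 0 means equal RNA in cold and control roots. By contrast 592 genes, 4.66%, lay above 0 on all 12. After 6 probes of the study's lists of regulated genes and 4 probes named for plastid genes were set aside, 331 genes were left, and the 100 with the lowest median over the 12 arrays were taken as members. Since these values selected the members, they are given as a description and were not tested.

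Primary roots of the varieties Fergus, Picker, PR39B29 and Codisco, grown from untreated seed in the dark, were compared. The control regime was 18 °C for 16 h followed by 12 °C, and the cold regime was 12 °C for 16 h followed by 6 °C for 8 h. The cooler control period lasted 6 h by the sample labels and 8 h by the study's methods, and the age of the roots was 8 days by the labels and 1 day after germination by the methods. No mutant or transgene was involved, and Picker and PR39B29 were taken as the more and Fergus and Codisco as the less chilling tolerant varieties on the growth of their roots. Each of 3 biological replicates gave 8 RNAs, hybridised in pairs to 8 two-colour oligonucleotide arrays, 4 direct arrays (cold and control of a single variety) and 4 linking arrays (cold from one variety, control from a different one). The rule that chose the members did not use the 12 linking arrays. However, the replicate 2 array of Picker cold against PR39B29 control nearly repeats a direct array that the rule did use, as described below. The linking arrays carried the same RNAs as the direct arrays, so they are a second hybridisation and not new plants. Every value below is a log2 ratio of cold over control, and in whole roots fewer cells of a type and less RNA per cell cannot be told apart. Ratios and no signal levels were used here, and a ratio between 2 root RNAs does not show whether a marker such as RCc3 or root cap protein 2 was present, so that the root origin was not checked.

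The direction of the ratios is likely but not settled. It was read from the order of the 2 RNAs in the array titles, in which direct arrays name the control first and linking arrays the cold RNA first. Within a replicate, 39 of the 48 direct-linking pairs had a negative Spearman's rho across genes in the deposited values (median −0.26), which is the reason for turning the sign of the direct arrays. The study's methods subtract control from treatment, and its lists give negative values for MZ00056611 in PR39B29 and MZ00040530 in Picker. After turning, both probes lay below 0 on all 12 direct arrays, the same sign as in those lists. The signs of the other listed probes were not compared here. The dye labels instead place cold RNA in the Cy5 channel throughout the 24 arrays, and under that reading the members would be higher in the cold on the direct arrays while the signs of the linking arrays would stay as given here. With no dye swap among the direct arrays, the dye bias of a probe and its response to cold cannot be told apart on them. An array held values for 18268 to 43108 genes, and the number of arrays limits the precision. Several arrays stood apart. In replicate 2, the PR39B29 direct array and the Picker/PR39B29 linking array (cold RNA of Picker, control RNA of PR39B29, and so on for the other linking comparisons) were close to a copy of each other as deposited (Pearson's r 0.987 over 22672 genes, while no other pair of arrays passed a rho of 0.817 in size). After turning they have opposite signs, so that members chosen below 0 on the one had to lie above 0 on the other. The direct arrays of PR39B29 in replicates 1 and 2 and of Codisco in replicate 1 resembled each other (rho 0.70 to 0.82) more than the other 9 direct arrays (rho −0.28 to 0.48). The Codisco/Fergus linking array of replicate 2 was negatively correlated with 11 of the 12 direct arrays.

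Maize comes from warm regions, and its seedlings are sensitive to chilling. At low temperature the division and the expansion of root cells slow down, membranes become stiffer, and plants change the RNA levels of many genes of metabolism, membrane transport, cell walls and stress protection. The members carry few names that tell a function. Of the 100, 75 were named by a tentative consensus (TC), a contig assembled from expressed sequence tags (ESTs), 21 by a single EST, 2 by an assembled genomic sequence, and 2 by a reading frame (MZ00040522 and, as hypothetical_protein_7, MZ00034895). Among all 12708 genes with 12 direct values, TC names made up 78.3% and EST names 14.2%. No member matched a gene in the reference annotation, which matched 175 other genes of the array, and none was a plastid NADH dehydrogenase, ATP synthase, cytochrome b6f, other plastid or mitochondrial respiratory chain gene by its name. Those lists held 14 genes of the array in all, of which 0 had a value on all 12 direct arrays. The members are therefore given by probe and sequence name only. Each was a single spot, and together they lay in 43 of the 48 blocks of the slide, with at most 5 in a block.

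**Figure D1:**
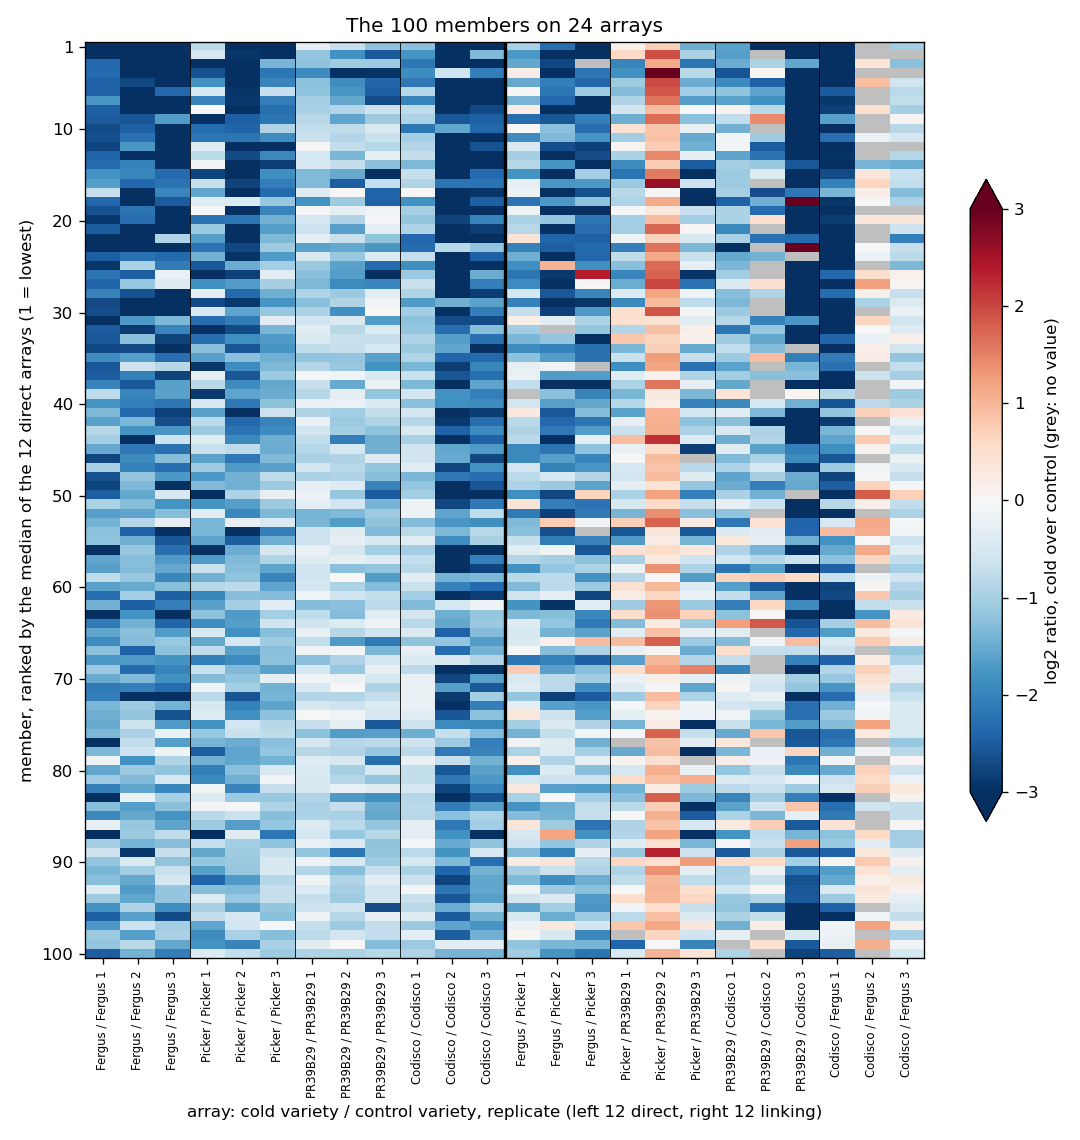
Log2 ratio of cold over control of the 100 members (rows, ranked by the median of the 12 direct arrays) on the 12 direct arrays (left of the thick line) and the 12 linking arrays (right), with 3 replicates of each comparison side by side, colours limited at −3 and 3 and grey where there was no value. The left side is below 0 throughout because it chose the members, while on the right the Picker/PR39B29 array of replicate 2 is above 0 for 98 of 100 members.

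The direct medians of the members ran from −3.26 to −1.02, with a median of −1.34, and 22 members had a median under −2. The probe with the lowest median was MZ00021642 (TC274874), at −3.54, −3.50 and −4.90 in Fergus, −0.80, −4.18 and −3.02 in Picker, −0.24, −0.69 and −1.20 in PR39B29 and −1.26, −14.12 and −4.75 in Codisco. Its 3 PR39B29 values were all nearer to 0 than its 3 Fergus values, and the value of Codisco in replicate 2 lay far from the other 2 of that variety. MZ00016846 (TC271027) followed with a median of −2.72 (lowest −4.92, highest −0.49), and it was lowest in Fergus (−3.68 ± 0.40, SD, n = 3). Another probe of TC271027, MZ00056371, was below 0 on 7 of 12 direct arrays (median −1.38, highest 0.51). The third was MZ00040522, one of the 2 probes named for a reading frame, at −2.36, −3.13 and −3.09 in Fergus, −3.88, −3.04 and −1.38 in Picker, −1.20, −1.07 and −1.09 in PR39B29 and −2.15, −5.12 and −3.15 in Codisco. Here the PR39B29 values lay close together and above those of all 9 other arrays. MZ00043887 (TC208483) was one of 8 members with the highest mean in Codisco (−1.52 ± 0.79) and not in PR39B29 (−2.71 ± 0.71).

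The sequence TC254030 held 2 of the 10 lowest members. MZ00004347 had a lowest value of −4.59, a median of −2.40 and a highest value of −1.23, with means of −2.72 ± 0.29 in Fergus, −2.27 ± 0.64 in Picker, −1.83 ± 0.58 in PR39B29 and −3.58 ± 1.27 in Codisco (SD, n = 3 each). MZ00001082 had a lowest value of −5.67 and a median of −2.37, with means of −2.72 ± 0.83 in Fergus, −2.33 ± 0.50 in Picker, −1.73 ± 0.84 in PR39B29 and −3.76 ± 1.84 in Codisco. Both probes had Codisco in replicate 2 as the lowest array and PR39B29 in replicate 1 as the highest. The other probe of this name, MZ00056611, is in the study's list of PR39B29 genes and was left out by the rule. Its direct median was −2.56, and it too was below 0 on all 12. Together with MZ00040522, the 2 members of TC254030 were the 3 members with all 12 direct values below −1.

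**Figure D2:**
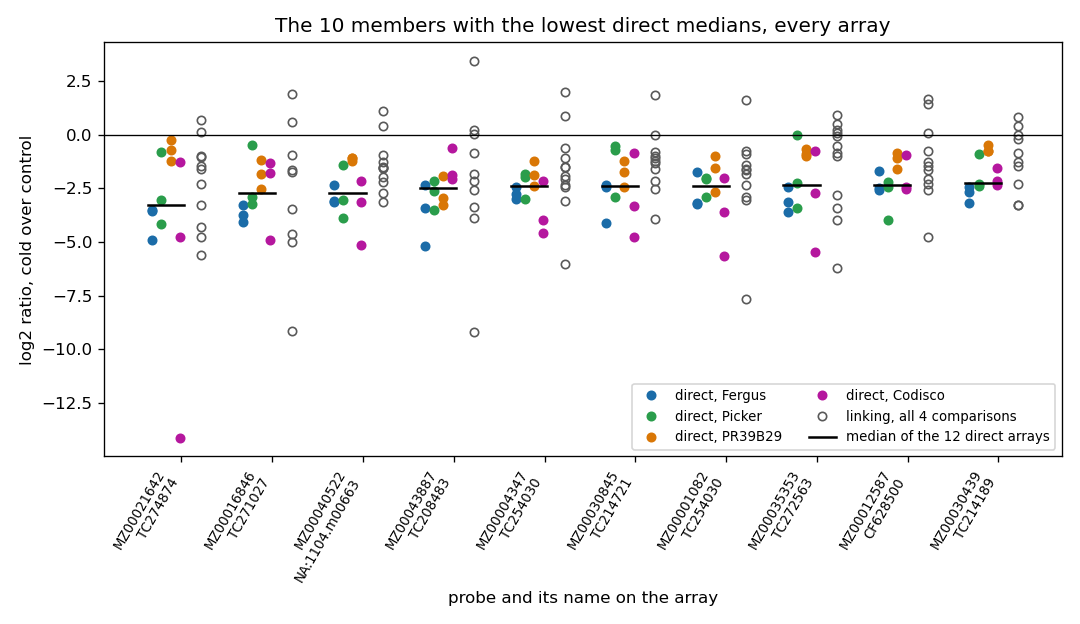
Log2 ratio of cold over control of the 10 members with the lowest direct medians, with filled points for the 3 direct arrays of each variety, open points for the linking arrays and a line at the median of the 12 direct arrays. The PR39B29 points lie near the upper end of the direct values for most of the 10, and the open points spread on both sides of 0.

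Of the other members among the 10 lowest, MZ00030845 (TC214721) had a direct median of −2.39, MZ00035353 (TC272563) of −2.35, the EST CF628500 (MZ00012587) of −2.32 and MZ00030439 (TC214189) of −2.24. MZ00035353 met the condition most narrowly of the 10, with −0.0011 on the Picker array of replicate 1 against −3.41 and −2.27 on the other Picker arrays. In MZ00030439 the PR39B29 values (−0.74, −0.77 and −0.46) again stood above those of Fergus (−2.68, −2.44 and −3.19) and Codisco (−2.17, −1.56 and −2.35), without overlap. At the other end, the last members were MZ00042688 (TC256852, median −1.03), MZ00021914 (TC256655, −1.02) and MZ00020346 (TC262452, −1.02), and just outside lay MZ00017185 (TC248001, −1.02), MZ00038768 (TC248068, −1.02) and MZ00014688 (TC250029, −1.01). The condition on all 12 arrays was met narrowly by many members, 18 of which had a highest value above −0.1, while 22 had all 12 values below −0.5. The highest value of a member lay on a PR39B29 array for 52 members and on one of the 3 direct arrays that stood apart for 53.

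The size of the members' ratios differed between the varieties. The median over the 100 members of the mean of 3 direct arrays was −1.92 in Fergus, −1.67 in Codisco, −1.47 in Picker and −0.83 in PR39B29. PR39B29 had the mean nearest to 0 for 76 of the 100 members, and Codisco (44) or Fergus (39) the mean farthest from it for most. These are the values that chose the members, and no test was made of them. Over the 3 arrays of a variety a member had a median SD of 0.62, and its 4 variety means spanned 1.37 in the median. The arrays differed in their overall spread, from 0.51 to 1.18 (scaled median absolute deviation of all genes, direct arrays). Divided by the spread of its array, the medians were −2.32 in Fergus, −1.84 in Codisco, −1.87 in Picker and −1.24 in PR39B29, and PR39B29 was nearest to 0 for 66 members. Codisco and Picker thus changed places, while PR39B29 stayed nearest to 0. Without the 3 arrays that stood apart, PR39B29 was left with 1 array and a median of −1.07, Codisco with 2 and −2.18, and PR39B29 was nearest to 0 for 56. Among the 100 highest of the genes above 0 on all 12, chosen by the mirrored rule, PR39B29 did not have this place alone, since it was nearest to 0 for 40 and Picker for 41. For these genes the count was 32 for PR39B29 and 43 for Picker after division by the spread, and 18 and 63 without the 3 arrays that stood apart, where the median of PR39B29 (2.23) was above those of Fergus and Picker.

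**Figure D3:**
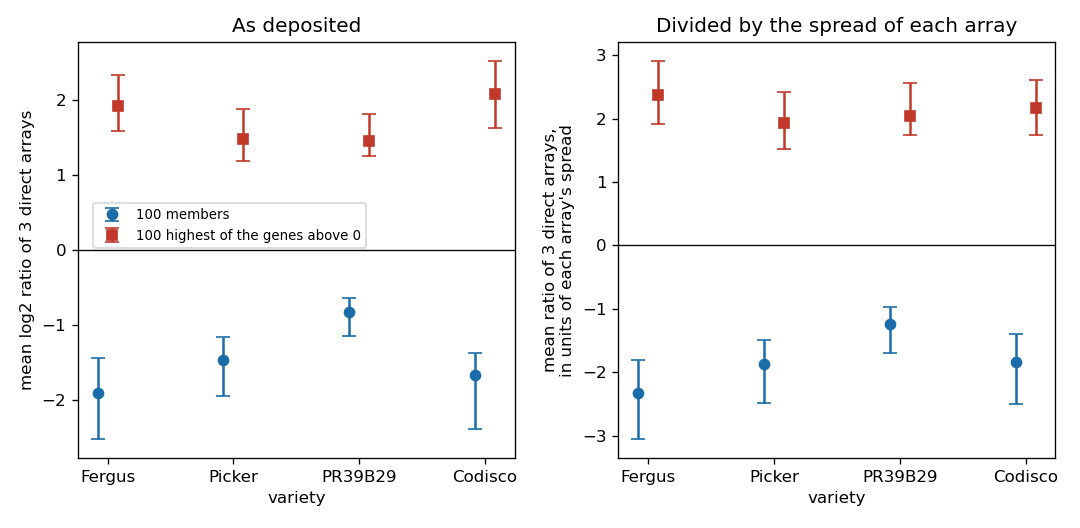
Median (points) and quartiles (bars) over 100 genes of the mean ratio of the 3 direct arrays of each variety, as deposited on the left (log2 ratio) and divided by the spread of each array on the right, for the members (circles) and for the 100 highest of the genes above 0 on all 12 arrays (squares). The members are nearest to 0 in PR39B29 on both scales, at −0.83 and −1.24.

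The 3 members with the smallest range of the 4 variety means were MZ00026557 (TC272573), MZ00015799 (TC251067) and MZ00017235 (TC252268). MZ00026557 had means of −1.29 ± 0.56 in Fergus, −1.07 ± 0.63 in Picker, −1.16 ± 1.20 in PR39B29 and −1.49 ± 0.74 in Codisco (SD, n = 3 each), a range of 0.42 that is smaller than each of these SDs. For MZ00017235 the range was 0.46, with PR39B29 at −0.63, −0.60 and −2.66. In each of the 3 members with the largest ranges the lowest value lay on the Codisco array of replicate 2, far below the other 2 Codisco values. MZ00021642 spanned 6.00 with the value of −14.12 given above. The EST BM379955 (MZ00037098) spanned 5.83, with −1.01, −17.20 and −3.10 in Codisco against −2.47, −1.54 and −0.48 in Fergus. MZ00017315 (TC249876) spanned 4.30, with −1.03, −12.58 and −2.08 in Codisco against −2.65, −3.11 and −3.67 in Fergus. The value of −17.20 is among 498 of all 606167 gene values on the 24 arrays that lie farther than 16 from 0. A log2 ratio of 16 is the largest that 16 bit intensities allow.

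Since cold and control RNA of a linking array came from different varieties, each holds the difference between both varieties as well as the effect of cold. In the average of the 4 comparison means the variety differences cancel, because each variety is once in the cold and once in the control. This average had a median of −0.99 over the members and lay below 0 for 97 of 100. It ran from −3.22 to 1.95, the latter for MZ00026880, which has a value of 28.20 on one array. Over the 12671 genes with 12 direct values that had one, its median was −0.01, and it lay below 0 for 6434. For the 100 genes of the mirrored rule its median was 1.11. The plain mean over a member's linking arrays, called its linking mean here, had a median of −0.98, and outside the 56 members with all 12 values it need not weight the varieties equally. In the limma fit of the linking arrays, 0 of 17281 tested genes, 0.0%, were called lower (Benjamini and Hochberg, adjusted p under 0.05), and so none of the 96 members tested. The smallest adjusted p of a member in that fit was 0.0903. Both the fit and the averages above include the Picker/PR39B29 array of replicate 2, on which the choice of the members set the signs. At an unadjusted p under 0.05, 80 of the 96 members were lower in the limma fit, and so were 1583 (9.16%) of all genes tested. The other 4 members had under 2 values in a linking comparison and were not tested.

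The 2 linking arrays of replicate 2 that stood apart bore on these values. On the Picker/PR39B29 array of replicate 2, the near copy, 2 of 100 members lay below 0 and the median member stood at 0.94. On the Codisco/Fergus array of replicate 2, 19 of 70 members lay below 0, with a median of 0.28, and 30 members had no value against 7.05% of the genes with 12 direct values. On each of the other 10 linking arrays 77.6% to 97.0% of the members with a value lay below 0. Over all 12 linking arrays, 48.2% to 50.2% of all genes with a value lay below 0. The PR39B29/Codisco array of replicate 2, among these 10, had no value for 19 members, against 4.74% of the genes with 12 direct values. Without the near copy, 0 of 92 members tested were called in limma (smallest adjusted p 0.0517), and 80 were lower at an unadjusted p under 0.05 against 1488 (10.3%) of 14448 genes. Without both arrays, which was tried after their values had been seen, 44 of 92 members were called lower in limma at an adjusted p under 0.05, against 221 (1.65%) of 13433 genes, and the median of the members' means was −1.30. The second array was doubted in part for the members' own values, so that this count is not independent of them.

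**Figure D4:**
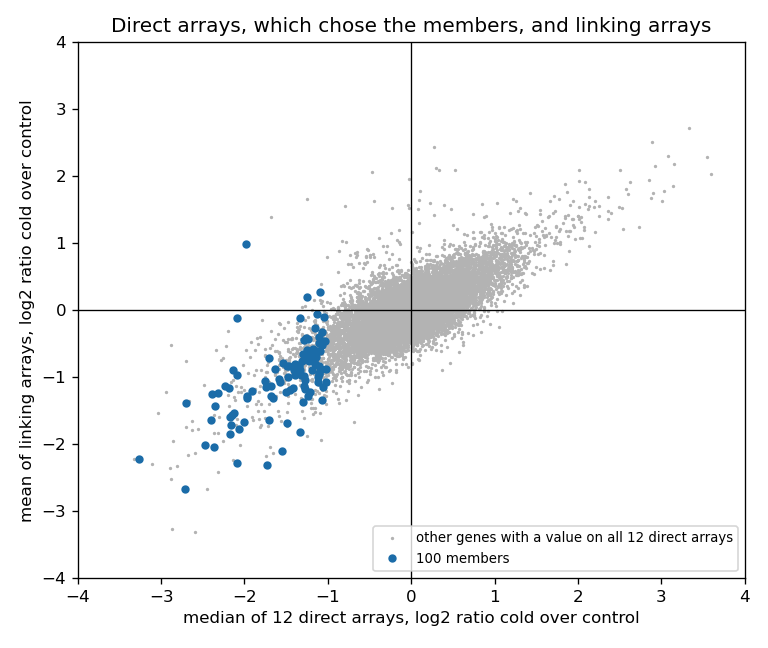
Median of the 12 direct arrays (horizontal) against the mean of the linking arrays (vertical), both as log2 ratio of cold over control, for the 100 members (large points) and the other genes with a value on all 12 direct arrays (small points). The members lie to the left because the horizontal values chose them, and 97 of them lie below 0 on the vertical axis. Both axes come from the same RNAs, and 1 gene lies beyond the axes.

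By linking comparison, the median over the members of the mean was −1.30 for Fergus cold against Picker control, −1.40 for PR39B29 cold against Codisco control, −0.94 for Codisco cold against Fergus control and −0.15 for Picker cold against PR39B29 control. The last comparison, which holds the near copy, had 59 members below 0 and 41 above, and its 2 other arrays had medians of −0.76 and −0.83. Of the members with a value on all 3 arrays of a comparison, all 3 lay below 0 for 73 of 95 in Fergus/Picker, 53 of 77 in PR39B29/Codisco, 17 of 70 in Codisco/Fergus and 2 of 96 in Picker/PR39B29. The last count was limited by the near copy, on which 2 of 100 members lay below 0. The share of all genes with all 3 below 0 was not counted, so these counts have no background beside them. No member was below 0 on all of its linking arrays, which only the 2 members below 0 on the near copy could have been. Without the near copy, 21 were below 0 on every linking array on which they had a value, and of the 56 with all 11 values 8 were below 0 on all 11, as were 72 (0.645%) of 11163 genes.

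The members with the smallest p on the linking arrays were not those with the lowest direct medians, except MZ00021642. MZ00033212 (TC264120) stood at −0.84, −1.77 and −3.33 in Fergus/Picker, −1.88, 0.76 and −2.47 in Picker/PR39B29, −0.99, −1.13 and −2.55 in PR39B29/Codisco and −3.42, −1.40 and −1.48 in Codisco/Fergus. It lay below 0 on every linking array but the near copy, with a fitted mean of −1.71 (SE 0.32, limma adjusted p 0.0903). MZ00027309 (TC273215) had the same pattern at −0.55, −1.62 and −1.53, then −0.86, 0.21 and −2.02, then −1.93, −0.53 and −1.45, and last −2.58, −0.80 and −0.96 in these 4 comparisons, with a mean of −1.22 (SE 0.23). MZ00029826 (TC253428) was likewise above 0 on the near copy only (0.13), with a mean of −1.08 (SE 0.22). The pair of probes of TC255101, MZ00004346 and MZ00052484, were both among the 10, with fitted means of −1.40 (SE 0.28) and −1.14 (SE 0.25). Their direct medians were −1.29 and −1.29. The reading frame hypothetical_protein_7 (MZ00034895) had a mean of −1.53 (SE 0.33), and its direct values ran from −3.93 in Codisco to −0.01 in PR39B29. MZ00017235, MZ00056499 (TC263684) and MZ00052496 (BI389543) completed the list with fitted means of −1.34, −1.89 and −1.92. All 10 had a limma adjusted p of 0.0903.

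Among the 10 lowest members by direct median, 8 were tested on the linking arrays, and MZ00016846 and MZ00043887 had too few values. MZ00021642 lay below 0 on 9 of 11 linking arrays, at −0.98, −2.29 and −4.30 in Fergus/Picker, 0.14, 0.71 and −1.46 in Picker/PR39B29, −1.60, −3.26 and −5.61 in PR39B29/Codisco and −4.76 and −1.05 in Codisco/Fergus (fitted mean −2.28, SE 0.46, limma adjusted p 0.0903). MZ00040522 had a fitted mean of −1.45 (SE 0.37) and the TC254030 probes MZ00004347 and MZ00001082 had −1.64 (SE 0.44) and −2.02 (SE 0.55). These 3 probes were above 0 on the 2 doubted arrays of replicate 2 alone, as far as they had values there.

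The members MZ00026880 (TC262607), MZ00014234 (TC248009) and MZ00001395 (AW258064) had a linking mean above 0. For MZ00026880 the mean of 0.98 rested on 1 value of 28.20 on the PR39B29/Codisco array of replicate 3, and it lay below 0 on 9 of 11 arrays. The value of 28.20 lies beyond the limit of 16 given above, as does the −17.20 of MZ00037098. MZ00014234 was above 0 on 10 of 12 linking arrays, at 0.25, 0.38 and −0.84, then 0.61, 0.50 and 1.26, then 0.55, 0.60 and −1.01, and last 0.08, 0.78 and 0.13 in the order of comparisons used above, although its direct values ran from −2.29 to −0.10. Its linking mean of 0.27 (SE 0.18) did not pass the test (limma adjusted p 0.406). MZ00001395 was below 0 on 5 of 12 linking arrays with a mean of 0.20 (SE 0.27, limma adjusted p 0.704), while its direct values ran from −2.11 to −0.50.

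Whether a member's linking values differed among the 4 linking comparisons was tested with limma's moderated F-test. It called 49 (0.284%) of 17281 genes at an adjusted p under 0.05 and 0 of the 96 members, the smallest adjusted p being 0.192. At an unadjusted p under 0.05 the F-test took 13 of 96 members and 2133 (12.3%) of all genes, so that the members' share was near the background. The near copy, on which the choice of the members set the signs, was part of this test. Without it the F-test took 7 of 92 members and 1438 of 14448 genes at an unadjusted p under 0.05. Each linking mean also holds the difference in level between 2 varieties, so that this is no test of a difference in their response to cold.

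Some sequences were represented by further probes, which the rule did not use. There were 10 sequence names carried by a member and at least 1 other probe, with 12 members and 9 other probes, of which 6 had a direct median below 0 and 3 above. For TC263684 both probes were low, with a direct median of −2.01 for the member MZ00056499 and −1.86 for MZ00018498, which was below 0 on all 11 direct arrays on which it had a value. For TC273215 the medians were −1.51 for the member MZ00027309 and −1.68 for MZ00027308. The latter probe was below 0 on 8 of the 10 direct arrays on which it had a value (highest 1.73). For TC248952 the medians were −1.48 for the member MZ00043089 and −1.15 for MZ00044307, the last below 0 on 8 of 12 direct arrays. Other pairs differed in sign. For TC249876 the member MZ00017315 had a direct median of −1.71, but MZ00016040 had 0.32 and was below 0 on 1 of 12 arrays. For TC262452 the member MZ00020346 had −1.02, and MZ00018958 had 0.15 and was below 0 on 5 of 12. On the linking arrays, which carry the same RNAs, the means were −1.64 and 0.23 for TC249876 and −1.08 and 0.28 for TC262452.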

How the data were processed

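The authors deposited a log2 ratio (M-value) per spot. By the study's methods, intensities at or below background were replaced (minimum method) in CARMAweb, a web service built on limma. Each array was normalised by loess within print tips, the arrays were scaled to each other and bad spots were excluded. In the deposited values the spread of the arrays (scaled median absolute deviation of all genes) still differed. It ran from 0.51 to 1.18 on the direct arrays and from 0.45 to 1.23 on the linking arrays. The tool versions were not given in the sources used here. Scaling and background correction both move the size of a ratio, and signal levels were not used here. Spot names and positions came from a second deposited file, of which 96 columns of slide values, named for no sample, were not used. Spots of one probe were averaged. The members, lists and tests were chosen with earlier results of these data known. The members were found as described above with Python 3.11.15 and pandas 2.3.3. The linking arrays were fitted in R 4.3.3 using limma 3.58.1, with a mean for each of the 4 comparisons and no block, for genes with at least 2 values in each, with Benjamini and Hochberg adjustment over all of them and a threshold of 0.05. The average of the 4 means was tested against 0 (two-sided), and an F-test compared them. The fit was tried on simulated data. The members named were the 10 with the lowest direct medians, the 10 with the smallest p for a lower linking mean, those above 0 in the linking mean, the 3 on each side of the limit and the 3 with the smallest and the largest range of variety means. Pearson's and Spearman's correlations are across genes, which are not independent replicates. The alternatives tried were other filters, a replicate block, centring, scaling, the dye labels, robust variances and leaving out replicates or arrays.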

Additional observations from a re-analysis of the deposited data

Results flagged for a closer look

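For 7 members all 3 arrays of one linking comparison lay above 0 and all 3 of at least one other below 0. The share of all genes with this pattern was not counted, so the 7 have no background beside them. The difference was not tested by itself for these members, and the moderated F-test called 0 of the 96 members tested. In 6 of the 7 the comparison above 0 was Picker cold against PR39B29 control, which holds the array of replicate 2 on which 98 of 100 members were above 0. The sign on that array followed from the choice of the members. Their means in that comparison were 0.55 for MZ00030173 (TC276241), 0.43 for MZ00035065 (AI396236), 0.87 for MZ00017092 (TC196355), 0.84 for MZ00041992 (TC194887), 0.52 for MZ00038743 (CD960870) and 0.73 for MZ00035375 (AI948350), and all 6 were below 0 on the 3 arrays of Fergus cold against Picker control. MZ00041992 stood at 0.54, 0.90 and 1.08 in Picker/PR39B29 and at −0.53, −0.61 and −0.65 in Fergus/Picker. The 7th, MZ00030060 (TC254202), had a mean of 0.68 in PR39B29 cold against Codisco control, at 0.67, 0.77 and 0.61, while it stood at −0.81, −0.77 and −1.83 in Fergus/Picker and at −0.68, −0.14 and −0.58 in Codisco/Fergus. Groups of 3 arrays are too small for a test of single outlying arrays.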

How the results depend on the processing

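The count of 0 members called lower on the linking arrays stayed at 0 with values on all 12 arrays required, the 40% of genes with the largest variance, centring, robust variances and without the Picker/PR39B29 array of replicate 2. The dye labels leave the linking signs as they are, so that this fit equals the one reported and shows nothing about stability. The count became 7 of 96 with the arrays scaled to one spread, against 43 of 17281 genes. Without both linking arrays of replicate 2 that stood apart (chosen after seeing the data) it was 44 of 92, against 221 of 13433 genes. Without replicate 1 it was 1 of 57, against 118 of 11720 genes, and without replicate 2 or 3 it was 0. At an unadjusted limma p under 0.05 the 80 members became 45 of 56 with all 12 values required, against 1017 of 10815 genes. Without both arrays they were 82 of 92, against 1467 of 13433 genes. Without replicate 1 they were 29 of 57 (1407 of 11720 genes), without replicate 2, 74 of 84 (1145 of 12345), and without replicate 3, 26 of 61 (416 of 13207). The F-test called 0 members in all 11 fits made. A replicate block gave 0 of 96 members called lower in limma, and 78 at an unadjusted p under 0.05, against 1937 of 17262 genes. Deviations of arrays with the same replicate number correlated from −0.08 to 0.52 (median 0.13) and those of arrays with other numbers from −0.45 to 0.33 (median −0.12). Because not every same-numbered pair was above 0.1, the main fit had no block. This limit does not show that the arrays of a replicate are unpaired, and the fit with a block is given above. The 341 genes below 0 on all 12 direct arrays became 479 to 748 without a replicate, 373 without the PR39B29 array of replicate 2, 641 without the 3 direct arrays that stood apart (chosen after seeing the data) and 592 with the dye labels, which turn every sign. The median of the members' linking means stayed between −1.38 and −0.81 under all 11 alternatives, and 90 of the 100 members stayed when ranked by the mean but 48 when chosen without those 3 arrays. The linking mean of MZ00026880 ranged from −1.86 without replicate 3 to 3.28 without replicate 1, and that of MZ00001395 from −0.0265 without replicate 2 to 0.45 without replicate 1 and was −0.0191 without the 2 doubted arrays. That of MZ00041992, −0.05, became 0.0556 without replicate 1 (−0.12 without replicate 2 and −0.21 without the 2 doubted arrays) and 0.0229 with the arrays scaled. Of the other members named by the rule or in the part on results for a closer look, none changed the sign of its linking mean under the 7 alternatives run for single members. The causes were not tested. How far a spot lay above background is unknown from the ratios.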
